A study of Mus musculus with 6 samples.

Results

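The Krüppel-like factor (KLF) genes Klf2, Klf3, Klf4, Klf5, Klf6, Klf7, Klf9, Klf10 and Klf13 were examined in 6 lists of transcription factor binding sites from mouse bone marrow-derived macrophages (BMDMs), primary macrophages grown from marrow cells. A peak, a stretch of DNA where chromatin immunoprecipitation sequencing (ChIP-seq) reads pile up, was taken for a gene when the deposited annotation named that gene as holding the nearest transcription start site (TSS). By this rule the 9 genes held 406 of the 134964 peaks. After overlapping peaks of the 6 lists were merged, they held 165 of 60856 regions. Only Klf5 had none, so 8 of the 9 genes are described by values.

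All samples came from marrow of 8 to 12 week old mice, labelled Wt, whose cells had been differentiated for 6 days with L929 supernatant as the source of macrophage colony-stimulating factor (MCSF). Control cells, whose samples are labelled veh, got no IL-4. Treated cells got 20 ng/ml IL-4 for 1 h before fixation with DSG and formaldehyde. Antibodies against C/EBPα, IRF8 or JUNB were used, with 1 sample for each factor and condition. No group has a replicate, so no difference between the conditions below could be tested against replicate spread. The lists held between 2325 peaks (JUNB after IL-4) and 42076 peaks (IRF8 after IL-4). Read depth was not given in the sources used here. A culture can hold cells other than macrophages, and the lists hold peaks only. Of 8 macrophage marker names, 6 had a peak assigned, with 122 peaks in all, and the names at 0 were Spi1 and Adgre1, the latter being listed as Emr1. Of the B cell markers 3 of 3 had peaks (25 in all), against 1 of 3 T cell and 1 of 3 neutrophil markers. Peaks near a gene do not measure its expression.

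KLF proteins are zinc finger transcription factors that bind GC-rich and CACCC-type DNA, the same kind of element that SP proteins bind. In macrophages Klf2 and Klf4 are known to restrain inflammatory genes, and Klf4 is induced by IL-4 through STAT6 and takes part in alternative activation. Klf6 is known for a role on the inflammatory side, and Klf7 is its close relative. Klf3 recruits the CtBP corepressor, Klf9, Klf10 and Klf13 can recruit SIN3A, and Klf10 was found as a gene induced by transforming growth factor β. C/EBPα, IRF8 and the AP-1 subunit JUNB sit on macrophage enhancers before a signal arrives, and the comparison asks how their occupancy near these genes looked soon after IL-4.

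The regions that the results below turn on are shown as 200 bases around the centre of the strongest peak, on the plus strand of GRCm38 (the assembly that mm10 names), in lower case. Capitals mark a match to a searched motif: TTGCNNAA for C/EBP, TGACTCA for AP-1, and TTC and GAA with 3 or 4 bases between them for STAT. The first, at chr4:55567254-55567453, is shown because its C/EBPα score had the highest ratio of IL-4 to control, and it holds no match. The second, at chr4:55623493-55623692, had the highest C/EBPα score and holds a C/EBP match. The others are regions where 2 factors had a peak only after IL-4. They lie at chr4:55735641-55735840 with an AP-1 match, chr4:55975239-55975438 with a STAT match, chr13:6191959-6192158 with 2 AP-1 matches and a STAT match, and chr1:64134471-64134670 with a STAT and a C/EBP match. All of these windows are intergenic.
Klf4, 34.9 kb upstream: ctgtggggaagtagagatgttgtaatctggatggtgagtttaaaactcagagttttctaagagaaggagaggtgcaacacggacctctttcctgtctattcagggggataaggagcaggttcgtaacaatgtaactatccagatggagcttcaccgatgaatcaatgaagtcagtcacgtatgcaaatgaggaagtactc
Klf4, 91.1 kb upstream: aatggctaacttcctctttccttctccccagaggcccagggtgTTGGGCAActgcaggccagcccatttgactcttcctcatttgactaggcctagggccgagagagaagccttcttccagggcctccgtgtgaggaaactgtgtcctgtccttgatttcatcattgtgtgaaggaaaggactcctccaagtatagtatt
Klf4, 203 kb upstream: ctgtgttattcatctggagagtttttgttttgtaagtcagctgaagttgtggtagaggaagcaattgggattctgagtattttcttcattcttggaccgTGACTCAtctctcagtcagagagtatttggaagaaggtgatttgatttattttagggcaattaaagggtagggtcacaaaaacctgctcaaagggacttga
Klf4, 443 kb upstream: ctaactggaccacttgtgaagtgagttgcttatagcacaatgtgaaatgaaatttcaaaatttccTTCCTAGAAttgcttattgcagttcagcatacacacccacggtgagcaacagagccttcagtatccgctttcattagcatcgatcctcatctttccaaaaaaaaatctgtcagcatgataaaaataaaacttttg
Klf6, 331 kb downstream: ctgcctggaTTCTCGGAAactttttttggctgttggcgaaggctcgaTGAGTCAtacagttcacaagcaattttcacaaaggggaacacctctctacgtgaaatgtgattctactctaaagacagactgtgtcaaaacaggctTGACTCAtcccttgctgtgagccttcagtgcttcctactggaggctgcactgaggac
Klf7, 13.2 kb upstream: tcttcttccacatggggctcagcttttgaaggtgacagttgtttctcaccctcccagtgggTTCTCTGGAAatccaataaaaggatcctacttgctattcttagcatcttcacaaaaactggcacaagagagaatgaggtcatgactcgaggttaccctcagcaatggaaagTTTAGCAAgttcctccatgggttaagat

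The highest IRF8 score of the family lay 3.23 kb into Klf6, in an intron by the deposited annotation. A stretch of 30 bases there, chr13:5864696-5864725, is shown for its composite ETS-IRF match, GGAA and GAAA with 2 bases between them, which reads on the opposite strand and stands in capitals.
Klf6, 3.23 kb downstream: tcctgtgtgcTTTCAGTTCCactttcagta

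IRF8 held the most sites near the KLF genes, C/EBPα fewer and JUNB few. The C/EBPα lists gave these genes 76 control and 79 IL-4 peaks, the IRF8 lists 104 and 124, and the JUNB lists 15 and 8. These counts follow the sizes of the lists. As a share of all peaks, the KLF genes took 0.310% and 0.321% of the C/EBPα lists, 0.277% and 0.295% of the IRF8 lists, and 0.381% and 0.344% of the JUNB lists. Klf4 alone held 137 of the 406 peaks. Klf6 followed with 76 and Klf7 with 52, then Klf3 with 39, Klf2 with 34, Klf13 with 26, Klf10 with 25 and Klf9 with 17. For C/EBPα and IRF8 a typical KLF peak was neither strong nor weak for its list. The median percentile of the members' scores was 53.5 and 56.4 in the C/EBPα control and IL-4 lists, and 54.5 and 50.8 for IRF8. For JUNB it lay lower, at 39.7 and 37.0, over only 15 and 8 peaks. The score has no stated unit and was taken as −log10 of a p- or q-value, so it grows with read depth and is not a coverage.

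**Figure D1:**
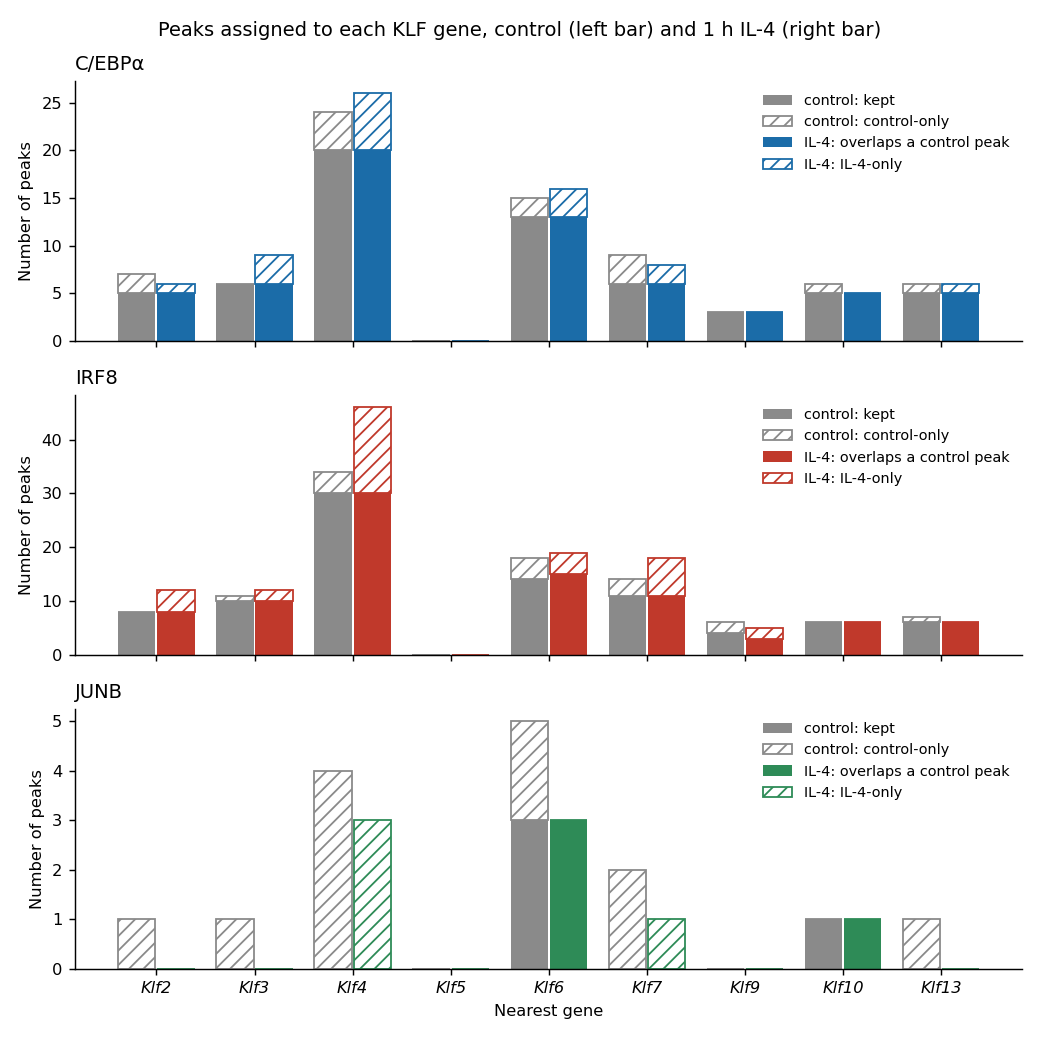
Number of peaks (vertical axis) assigned to each KLF gene in control (left bar) and after 1 h of IL-4 (right bar), for C/EBPα, IRF8 and JUNB, with 1 sample per bar. Hatched parts are peaks of one condition only; Klf4 has the tallest bars for C/EBPα and IRF8, reaching 46 IRF8 peaks after IL-4, and Klf6 the tallest JUNB bar with 5 control peaks.

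Most of the sites were far from the genes. The median distance of a KLF peak to the TSS was 77.4 kb for C/EBPα in control and 77.6 kb after IL-4, where all peaks of the lists had medians of 20.2 and 19.4 kb. For IRF8 the medians were 105 and 86.1 kb at the KLF genes against 21.0 and 20.0 kb over all peaks. JUNB sites lay farthest, at 180 and 226 kb against 26.1 and 27.0 kb. Between 84.8% and 100% of the KLF peaks of a list were annotated intergenic, against 42.0% to 50.6% of all peaks. By the deposited annotation, a promoter peak was found at only 2 of the genes. Klf6 carried a C/EBPα promoter peak in both conditions (score 8.46 in control and 11.87 after IL-4), and Klf9 an IRF8 promoter peak after IL-4 only (6.25, 475 bp upstream). The farther a gene's neighbours lie, the more distant peaks the nearest-TSS rule gives it.

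**Figure D2:**
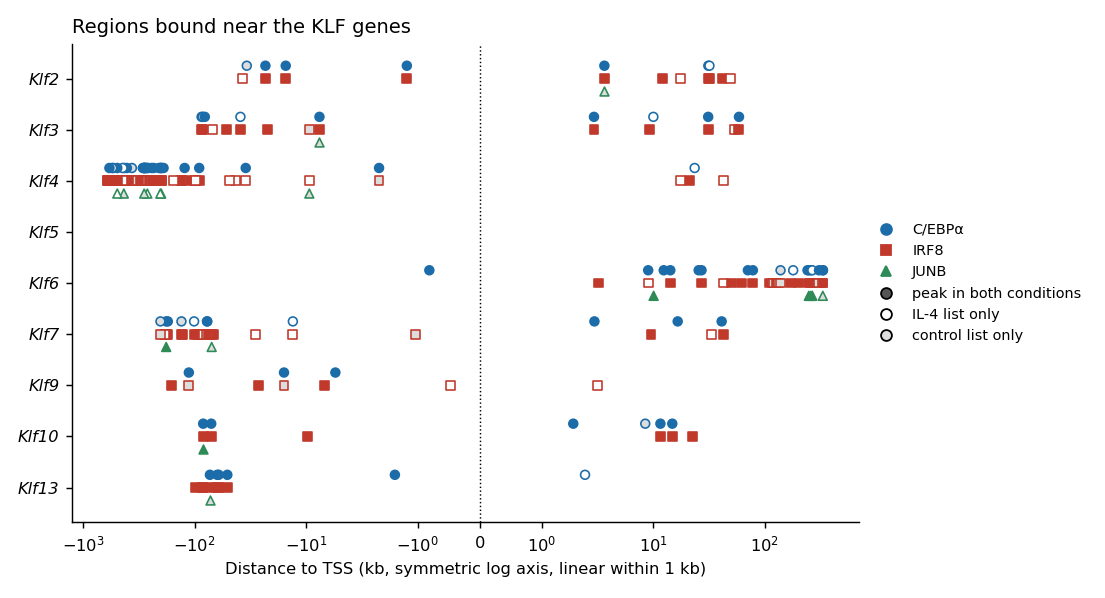
Distance to the TSS in kb (symmetric log axis, linear within 1 kb) of each region bound by C/EBPα, IRF8 or JUNB, for each KLF gene. Filled symbols have a peak in both conditions, open symbols only after IL-4 and grey symbols only in control; the Klf4 regions lie almost entirely upstream and the Klf6 regions downstream.

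For each factor, a control peak was called kept when an IL-4 peak overlapped it by at least 1 bp, and the remaining peaks were control-only or IL-4-only. Shares below carry Wilson 95% intervals, which cover counting error only. C/EBPα kept 63 of its 76 control peaks at the KLF genes, or 82.9% (72.9 to 89.7). It lost 13 peaks and had 16 IL-4-only peaks of 79, 20.3% (12.9 to 30.4). Over all C/EBPα peaks 21.4% of the control list was control-only and 22.0% of the IL-4 list was IL-4-only, so the KLF shares lay near the background.

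IRF8 kept 89 of 104 control peaks, 85.6% (77.6 to 91.1), and 15 were control-only, where the background was 21.4% control-only. IL-4-only peaks numbered 35 of 124, 28.2% (21.1 to 36.7), beside 30.4% over the whole list. The interval contains the background value, and the list as a whole went from 37525 to 42076 peaks.

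JUNB kept 4 of 15 control peaks, 26.7% (10.9 to 52.0), and 11 were control-only, a share to be read against 64.2% over the whole list. After IL-4, 4 of 8 JUNB peaks were IL-4-only, 50% (21.5 to 78.5), beside 39.2% in the background. Both intervals contain the background value. The IL-4-only share was 87.5% in lists cut to equal rank, 0% within 100000 bp of the TSS (2 peaks) and 20% without Klf4 (5 peaks). The whole JUNB list fell from 3940 to 2325 peaks.

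Where a factor had a peak in both conditions, scores were compared in one-to-one pairs. The median ratio of the IL-4 to the control score was 1.02 for C/EBPα (95% interval over pairs 0.942 to 1.18, 63 pairs), where all C/EBPα pairs had 0.997. For IRF8 it was 1.13 (1.01 to 1.22, 88 pairs) against 1.06, and 54 of the 88 pairs were higher after IL-4. For JUNB it was 1.15 over only 4 pairs, against 0.685 over all pairs. The Klf7 region 180 kb upstream (JUNB 15.75 in control and 5.19 after IL-4) gave no JUNB pair, because its JUNB peaks did not overlap. The intervals treat peaks as independent and describe 1 pair of samples.

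Scores that were at least 2-fold higher after IL-4 were found in 4 of the 63 C/EBPα pairs (6.35%), where 7.72% of all pairs were that much higher. At least 2-fold lower scores were found in 3 pairs, 4.76%, against 6.56%. Of the IRF8 pairs, 15 of 88 (17.0%) were 2-fold higher beside 11.3% over the list, and 4 (4.55%) were 2-fold lower beside 7.96%. JUNB had 1 pair of 4 that was 2-fold higher, with 2.99% in the background, and 0 that were 2-fold lower, with 29.9% in the background.

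For C/EBPα, the 3 pairs with the largest increase were all at Klf4. They lay 34.9 kb upstream (7.45 in control and 51.12 after IL-4, 6.86-fold), 190 kb upstream (5.28 and 15.80, 2.99-fold) and 273 kb upstream (4.35 and 9.36, 2.15-fold). The largest decreases were in intron 1 of Klf7, 2.97 kb from its TSS (10.05 and 3.54), and at Klf4 123 kb upstream (15.01 and 6.06) and 244 kb upstream (9.27 and 4.25). For IRF8 the order of increases was led by Klf13, 85.4 kb upstream (3.57 and 17.12, 4.80-fold), before Klf4 at 538 kb (5.40 and 22.08, 4.09-fold) and Klf6 at 332 kb downstream (7.27 and 23.91, 3.29-fold). The largest IRF8 decreases were at Klf4 244 kb upstream (16.26 and 4.50) and 132 kb upstream (15.87 and 4.99), and in intron 2 of Klf7 (16.83 and 5.50). The Klf4 region 244 kb upstream was thus 2-fold lower for C/EBPα and for IRF8.

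**Figure D3:**
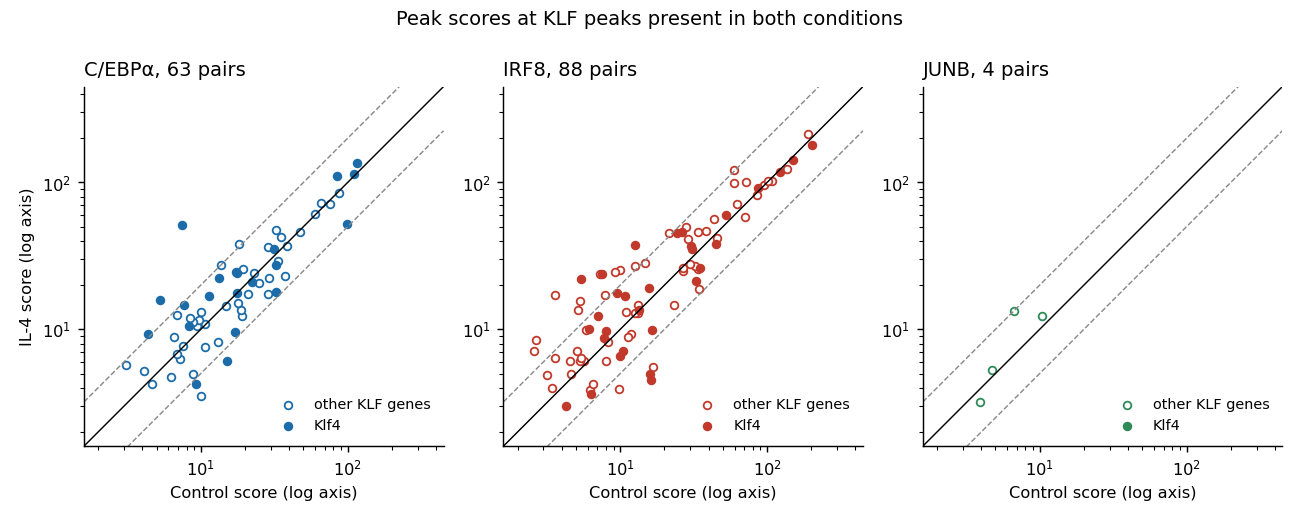
Peak score after IL-4 against the control score (log axes) for each pair of overlapping KLF peaks, by factor, with Klf4 as filled and the other KLF genes as open points. The solid line marks equal scores and the dashed lines a 2-fold difference; the C/EBPα point far above the upper dashed line is the Klf4 region 34.9 kb upstream (7.45 and 51.12).

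Klf4 (ENSMUSG00000003032, mm10 chromosome 4, 55527143 to 55532466, minus strand) was among the genes with the most peaks assigned. Its C/EBPα peaks numbered 24 without and 26 with IL-4, which ranked Klf4 9 of 9327 and 9 of 9319 genes with a peak. IRF8 had 34 and 46 peaks, ranks 6 of 12167 and 1 of 13302, and JUNB had 4 and 3. Genes with equal numbers share a rank. Gm20125 also had 34 and 46 IRF8 peaks, and Runx1 also had 34 in control. All 137 peaks were intergenic and spread from 602 kb upstream to 42.7 kb downstream, a span of 645 kb. Within 100000 bp of the TSS there were only 3 C/EBPα and 3 IRF8 peaks in control, and 4 and 10 after IL-4.

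The strongest sites near Klf4 scored much alike in both conditions. The IRF8 peak 292 kb upstream scored 200.87 in control and 181.17 after IL-4, the highest IRF8 score at this gene. Further strong IRF8 sites, 328 kb and 209 kb upstream, scored 149.69 and 143.29, and 121.69 and 117.66. The C/EBPα peak 91.1 kb upstream scored 116.47 and 134.82, and IRF8 at the same place scored 30.69 and 35.02. The C/EBPα peak 284 kb upstream scored 111.07 and 114.26, and the one 266 kb upstream 84.95 and 110.96. An exception among the strong C/EBPα sites was the one 428 kb upstream, with 98.36 in control and 52.35 after IL-4.

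Within 100000 bp of the gene, most IRF8 sites were in one list only. The nearest peak, 2.23 kb upstream, was held by C/EBPα in both conditions (22.47 and 21.16), and by IRF8 in control only (8.36). At 34.9 kb upstream C/EBPα went from 7.45 to 51.12, and an IRF8 peak of 15.91 was present only after IL-4. That IRF8 peak was one of 8 regions within 100000 bp of the TSS that IRF8 held only after IL-4, and 2 were held in both conditions and 1 in control only. The other 7 scored between 2.14 and 6.14, all under the list's median of 9.61. Of all IRF8 peaks after IL-4, 30.4% were IL-4-only. At the KLF genes within 100000 bp, Klf4 included, the share was 33.8% (23 of 68). A single IRF8 site downstream, 21.0 kb from the TSS, was strong in both conditions (45.02 and 37.97).

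Across the whole Klf4 neighbourhood, 6 C/EBPα peaks were IL-4-only and 4 were control-only. For IRF8 these counts were 16 and 4, the former being 34.8% of the 46 IL-4 peaks (22.7 to 49.2), an interval that contains the 30.4% of the whole list. The 16 became 7 among peaks scoring at least 5, and 10 in lists cut to equal rank. The 4 JUNB control peaks and the 3 JUNB peaks after IL-4 shared no site. The control peaks lay 9.38 kb (7.19), 200 kb (9.90), 284 kb (6.01) and 432 kb upstream (15.14). The IL-4 peaks lay 203 kb (5.18), 266 kb (5.26) and 494 kb upstream (3.19).

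**Figure D4:**
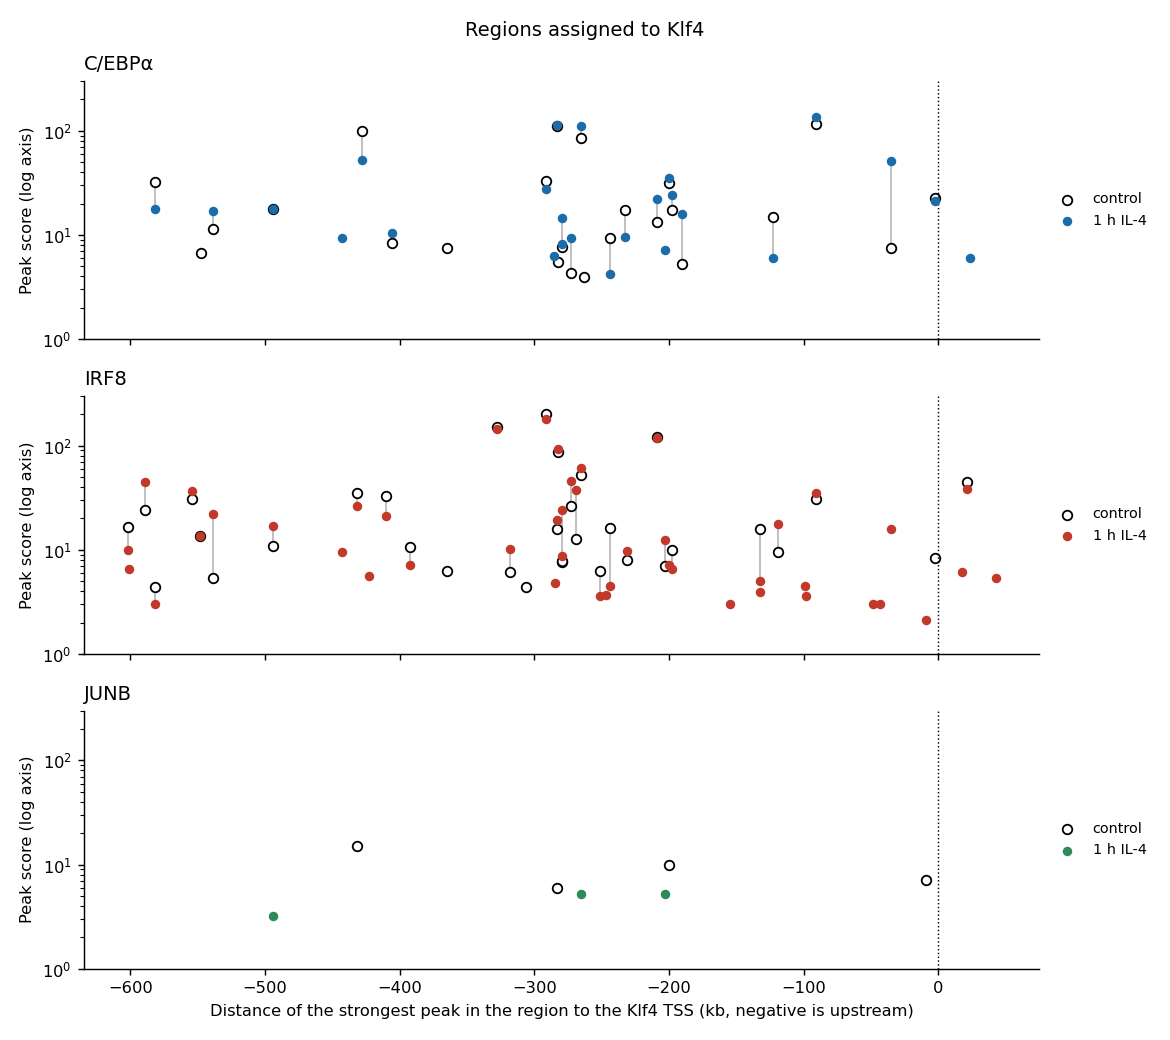
Score (log axis) of each Klf4 region in control (open) and after IL-4 (filled) against the distance to the Klf4 TSS in kb, one panel per factor, with a line joining regions that have a peak in both conditions. The sites scoring above 100 have both symbols close together, while the C/EBPα region 34.9 kb upstream has the longest line (7.45 to 51.12) and the JUNB panel has no joined pair.

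Klf2 (chromosome 8, 72319033 to 72321656, plus strand), which belongs to the same KLF subgroup as Klf4, had 7 and 6 C/EBPα peaks, 8 and 12 IRF8 peaks and 1 and 0 JUNB peaks in control and after IL-4. A region 3.64 kb downstream of the TSS carried all 3 factors in control. There C/EBPα scored 86.92 and 84.30 and IRF8 101.70 and 103.04, but the JUNB peak (10.11) was in the control list only. At 15.3 kb upstream C/EBPα stayed level (47.51 and 46.28) where IRF8 was higher after IL-4 (59.77 and 99.04). The site nearest the promoter, 1.25 kb upstream, was weak for C/EBPα (8.84 and 4.97) and IRF8 (3.43 and 4). The 4 IL-4-only IRF8 peaks of Klf2 scored at most 4.99.

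Klf6 (chromosome 13, 5861482 to 5870394, plus strand) had 15 and 16 C/EBPα, 18 and 19 IRF8 and 5 and 3 JUNB peaks, almost all downstream and up to 332 kb away. The intronic IRF8 site shown above scored 189.02 in control and 213.56 after IL-4, with no C/EBPα or JUNB peak. Other strong sites were 27.0 kb downstream for IRF8 (107.58 and 101.55) and 14.2 kb downstream for C/EBPα (59.62 and 61.33). JUNB kept 3 of its 5 control peaks at Klf6. Those 10.1 kb (10.35 and 12.28), 248 kb (3.95 and 3.22) and 266 kb downstream (6.65 and 13.38, 2.01-fold) were in both lists. The first of these was the only one of the 165 KLF regions bound by JUNB alone, beside 454 of all 60856 regions. JUNB peaks 258 kb (5.73) and 331 kb downstream (7.36) were in control only.

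Klf7 (chromosome 1, 64029447 to 64122282, minus strand) had 9 and 8 C/EBPα, 14 and 18 IRF8 and 2 and 1 JUNB peaks. The region 13.2 kb upstream, absent from every control list, held the strongest IL-4-only peaks of the whole family for C/EBPα (18.86) and for IRF8 (23.02). At 174 kb upstream IRF8 scored 59.25 and 121.94, a 2.06-fold difference, and C/EBPα 28.52 and 36.34. At 180 kb upstream all 3 factors had a peak in both lists, with C/EBPα at 35.13 and 42.71 and IRF8 at 26.68 and 25.12. JUNB there scored 15.75 in control, the highest JUNB score of the family, and 5.19 after IL-4, and these JUNB peaks lay in one merged region without overlapping each other. The peak nearest the TSS, 1.04 kb upstream by the deposited distance, was an IRF8 control-only peak of 2.10. By the gene position given above, its centre lay 148 bp from the TSS, although the deposited annotation called it intergenic.

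Klf3 (chromosome 5, 64803388 to 64832901, plus strand) had 6 and 9 C/EBPα, 11 and 12 IRF8 and 1 and 0 JUNB peaks. C/EBPα kept 6 of its 6 control peaks. The strongest site, 31.0 kb downstream, scored 72.03 and 99.97 for IRF8 and 24.76 and 20.57 for C/EBPα. A region 7.62 kb upstream held 3 factors in control, where C/EBPα scored 13.75 and 27.36, IRF8 62.27 and 71.04, and JUNB 5.45 in control only. The nearest site, 2.94 kb downstream in intron 1, stayed level for C/EBPα (33.43 and 29.02) and IRF8 (13.17 and 13.00). The strongest IRF8 control-only peak of the family was at Klf3, 9.38 kb upstream (14.74).

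Klf9, Klf10 and Klf13 had fewer sites. Klf9 (chromosome 19, 23141226 to 23168134, plus strand) had 3 C/EBPα peaks in each list and 6 and 5 IRF8 peaks, with no JUNB peak. Its strongest region, 113 kb upstream, scored 38.93 and 37.07 for C/EBPα and lost an IRF8 peak of 13.55. Klf10 (chromosome 15, 38291463 to 38300706, minus strand) kept 6 of 6 IRF8 peaks, and its strongest, 14.8 kb downstream on an ERVL-MaLR long terminal repeat, scored 95.25 and 96.45. At 83.9 kb upstream of Klf10 all 3 factors had a peak in both lists, with JUNB at 4.71 and 5.26 and IRF8 at 5.13 and 13.55. The nearest Klf10 site, 1.92 kb downstream, was bound by C/EBPα (8.92 and 11.26).

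Klf13 (chromosome 7, 63886351 to 63938915, minus strand) had 6 C/EBPα peaks in each list, 7 and 6 IRF8 peaks and 1 and 0 JUNB peaks, and most lay between 51.0 and 99.2 kb upstream. IRF8 scored 136.93 and 123.03 at the far end of this cluster. At 62.9 kb upstream C/EBPα scored 65.56 and 72.91 and IRF8 85.14 and 82.41. At 60.9 kb both factors were higher after IL-4, with C/EBPα at 18.28 and 38.34 and IRF8 at 28.11 and 49.57. At 73.0 kb a JUNB peak of 6.79 was in control only, while IRF8 scored 21.57 and 45.16 and C/EBPα 76.35 and 71.38. The nearest Klf13 site, 1.61 kb upstream, was held by C/EBPα (10.04 and 13.07). Klf5 (chromosome 14, 99298691 to 99315036, plus strand) had no peak in any list, and the closest peak of any list lay 119 kb from its TSS.

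Regions of all 6 lists were then compared across factors. In control 132 of the KLF regions were bound, 8 of them by all 3 factors (6.06%, 3.10 to 11.5), beside 5.38% of all bound regions. After IL-4, 149 were bound and 7 held all 3 factors (4.70%, 2.29 to 9.38), beside 3.08%. In lists cut to equal rank the control share was 1.5% (2 of 133), and within 100000 bp of the TSS the share after IL-4 was 1.18% (1 of 85). Peaks in all 6 lists were found at 3 of the 165 KLF regions, beside 993 of all 60856 regions. The 3 were Klf6 248 kb downstream, Klf7 180 kb upstream and Klf10 83.9 kb upstream.

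Regions where 2 or more factors had a peak only after IL-4 numbered 4, or 2.42% of the KLF regions, against 1.48% of all regions. At Klf4 443 kb upstream these were C/EBPα (9.44) and IRF8 (9.43). At Klf4 203 kb upstream they were C/EBPα (7.18) and JUNB (5.18), with IRF8 at 7.01 in control and 12.39 after IL-4. At Klf6 331 kb downstream C/EBPα (13.68) and IRF8 (7.99) were IL-4-only and JUNB (7.36) control-only. The fourth was the Klf7 region 13.2 kb upstream. In the opposite direction, 3 regions (1.82%) lost 2 factors, against 1.12% of all regions. C/EBPα and IRF8 were both in control only at Klf4 365 kb upstream (7.50 and 6.19), Klf6 138 kb downstream (4.79 and 6.85) and Klf7 203 kb upstream (7.39 and 4.16). At 4 regions (2.42%) one factor was control-only and another IL-4-only, beside 1.37% of all regions.

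The KLF regions with a JUNB peak in control only all had a peak of another factor after IL-4. Of the 10 KLF regions with JUNB in control only, 10 had an IRF8 peak after IL-4 and 7 a C/EBPα peak, and in 0 of them was either factor control-only. Over all 2495 regions of this kind, 77.0% had IRF8 and 66.3% C/EBPα after IL-4, and the control-only share was 6.57% for IRF8 and 7.09% for C/EBPα. At 3 of the 10, IRF8 was present only after IL-4, beside 165 of all 2495 such regions. The 3 all scored below 8, at Klf4 9.38 kb (2.14) and 200 kb upstream (7.15) and at Klf6 331 kb downstream (7.99). At the Klf4 region 9.38 kb upstream and at the Klf6 region, neither IRF8 nor C/EBPα had a peak in control.

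Motifs were searched on both strands in the 200 bases of each region, and a match is a description of the letters only. Beside those named above, ISRE was searched as a repeat of GAAA with 2 bases between the copies, and the KLF/SP box as CCACNCCC. No match overlapped a match of another motif in the KLF regions. A C/EBP match was found in 17.0% of the 165 KLF regions and 18.8% of the 60845 regions with sequence. AP-1 was found in 15.2% against 11.0%, ETS-IRF in 7.27% against 11.0%, ISRE in 9.09% against 7.59%, and the KLF/SP box in 7.88% against 5.74%. STAT matches were in 36 KLF regions, 21.8% (16.2 to 28.7), against 14.5% of all regions. Of these 36, 11 were among the 58 regions of Klf4, 7 among the 30 of Klf6 and 6 among the 24 of Klf7. Of the KLF regions bound by C/EBPα, 30.7% held a C/EBP match (31.4% of all C/EBPα regions), and of the 18 bound by JUNB, 8 held an AP-1 match (44.4%, against 39.7%). Of the 136 bound by IRF8, 8.82% held an ETS-IRF match (13.1% of all IRF8 regions) and 11.0% an ISRE match (8.81%).

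STAT matches were more frequent where occupancy was higher after IL-4. Of 19 KLF regions where C/EBPα was IL-4-only or at least 2-fold higher, 9 held a STAT match (47.4%, 27.3 to 68.3). Of the other 69 C/EBPα regions, 9 did (13.0%, 7.02 to 23.0), and over all regions the shares were 31.1% and 11.6%. For IRF8 the shares were 15 of 49 (30.6%, 19.5 to 44.5) and 16 of 87 (18.4%, 11.6 to 27.8), against 20.4% and 11.8% over all regions. The IRF8 intervals overlap. At Klf4, 6 of the 19 regions where IRF8 was IL-4-only or at least 2-fold higher held a STAT match. For C/EBPα it was 3 of 8 such Klf4 regions. Those with a match included the regions 269 kb (IRF8 12.58 and 37.71), 279 kb (7.56 and 23.98) and 538 kb upstream (5.40 and 22.08). The window 34.9 kb upstream held none.

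**Figure D5:**
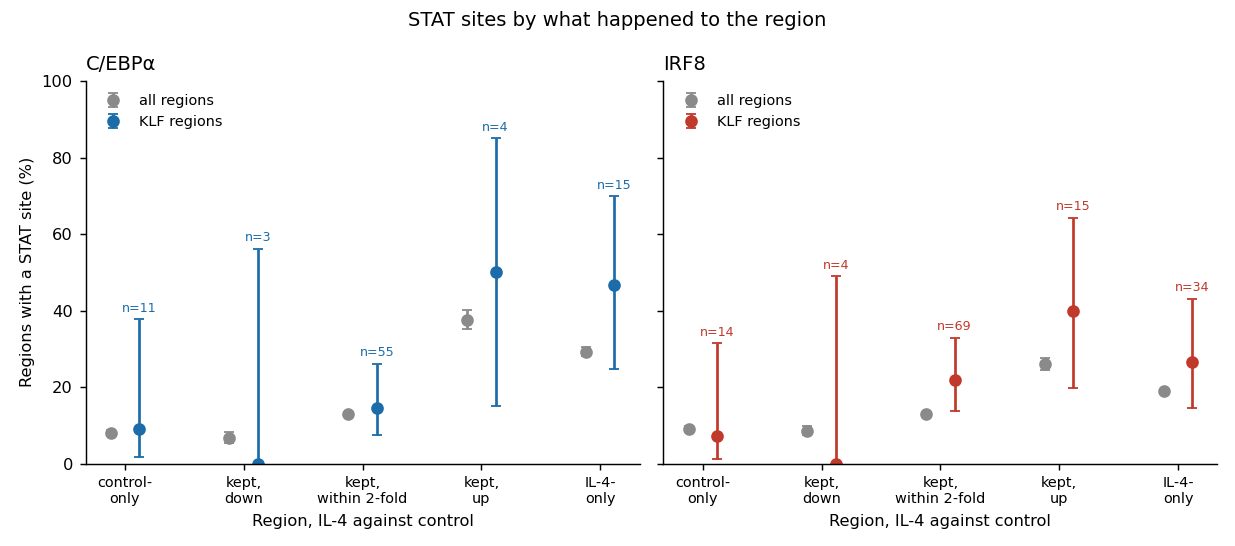
Percent of regions with a STAT match in 200 bases, by what the lists show for C/EBPα (left) and IRF8 (right), for KLF regions (coloured, n above each point) and all regions (grey). Bars are Wilson 95% intervals; for C/EBPα the KLF point for IL-4-only regions is 46.7% of 15 regions and that for kept regions within 2-fold is 14.5% of 55.

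The other KLF and SP genes had few peaks. Of 17 further family members, 11 had a peak in some list and together they held 104 peaks, which is fewer than Klf4 alone. C/EBPα had 26 and 22 of these, IRF8 25 and 29, and JUNB 2 and 0. Sp3, a widely expressed SP protein, held 59 of them, with 21 and 16 C/EBPα, 11 and 10 IRF8 and 1 and 0 JUNB peaks, so its C/EBPα peaks outnumbered its IRF8 peaks, unlike at Klf4. Klf8 had 4 IRF8 peaks in each list and Sp8 had 3, and Sp2 had 3 and 2 C/EBPα peaks.

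The genes whose peak numbers were most like those of Klf4, by the absolute difference summed over the 6 lists, were Gm20125 (12), 1700019E08Rik (16), Maf (17), Runx1 (21), and Eea1 and Foxp1 (23 each). Gm20125 had 23 and 30 C/EBPα, 34 and 46 IRF8 and 10 and 4 JUNB peaks. The measure uses numbers only and not positions or scores.

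Depth, the control library and the library kit were not given per sample, so a difference in any of them cannot be told apart from an effect of IL-4. With a single sample per group, scores of one factor may differ between lists by as much between equal cultures, which was not tested.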

How the data were processed

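ChIP-seq peaks of C/EBPα, IRF8 and JUNB were analysed in BMDMs with and without IL-4, 1 sample per factor and condition. Per the study's methods, reads were mapped by the authors to mm10 with BWA at default parameters. They called peaks per sample with MACS2 at a q-value limit of 0.01 and removed blacklisted regions. The submitters' processing notes name BWA 0.7.10, SAMtools 0.1.19, MACS2 2.0.10 and HOMER 4.2, and the files carry HOMER annotation. The deposited peak score was taken as −log10 of a p- or q-value from its range of values, since no source states its unit. A low q limit and unknown depth mean that weak peaks can drop in or out of a list. The control library and the kit of each sample were not given in the sources used here. The deposited distance to the TSS and annotation were used unchanged.

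The 9 genes, the gene lists and the rules for naming regions were chosen with earlier results of these data known. Named were the strongest and the nearest region of each gene, the 3 highest single-condition peaks and the 3 largest score changes of each factor and direction, and regions where 2 or more factors were gained or lost. Other regions in the text were chosen after their values were seen. Overlaps needed 1 bp, shared peaks were paired one-to-one with the largest overlap first, and touching peaks of the 6 lists were merged, a region taking the highest score of each sample. Medians carry binomial order-statistic intervals, where the number of pairs allowed one. Sequences came from the RefSeq copy of GRCm38 and gene positions from GENCODE. No peak ended past its chromosome (0 peaks). Start positions are as written in the files. The code ran under Python 3.11.15 with pandas 2.3.3 and numpy 2.4.6, took intervals from scipy 1.17.1 and plots from matplotlib 3.10.9, and was tested on simulated data. The kept and IL-4-only shares, the median score ratios, the Klf4 counts and the shares bound by all 3 factors were recomputed with an overlap of 50%, a score of at least 5, lists cut to equal rank, only sites within 100000 bp, merging within 200 bp, scaled scores or without Klf4, where the setting applied. Motif shares, counts of 2-fold differences and regions with 2 factors gained or lost were not recomputed. No significance test was run, because no group had a replicate.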

Additional observations from a re-analysis of the deposited data

Results flagged for a closer look

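The number of KLF peaks after IL-4 relative to control was 1.04 in the C/EBPα lists, 1.19 in the IRF8 lists and 0.533 in the JUNB lists, so the JUNB list moved in the other direction from the other two. The difference was not tested, since each factor had 1 sample per condition. The whole JUNB list went from 3940 to 2325 peaks and the whole IRF8 list from 37525 to 42076, and the part of depth in these counts was not tested.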

How the results depend on the processing

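Of 82 values recomputed with other settings, 64 were called the same as the reported value and 18 moved. A value with an interval was called the same when the new value lay inside that interval. The Klf4 counts have no interval and were judged by their fold difference. The JUNB score ratio has none either and was called the same only when unchanged. The C/EBPα median log2 score ratio was 0.03 as reported and -0.03 both within 100000 bp of the TSS and without Klf4, with intervals that contain 0. The kept shares of the 3 factors and the C/EBPα and IRF8 score ratios stayed within their reported intervals under every alternative run. The IRF8 share of IL-4-only peaks was 20.4% among peaks scoring at least 5 and 20.6% in lists cut to equal rank, and the number at Klf4 was 7 and 10 instead of 16. Within 100000 bp of the TSS, Klf4 had 1 IL-4-only and 0 control-only C/EBPα peaks, 8 and 1 for IRF8, and 0 and 1 for JUNB. The JUNB share of IL-4-only peaks was 87.5% at equal rank, 0% within 100000 bp and 20% without Klf4. The JUNB median log2 score ratio was 0.20 as reported, 0.63 for scores of at least 5 (2 pairs), 0.25 at equal rank (1 pair) and 0.55 with scores divided by the list median. The share of KLF regions held by all 3 factors was 1.18% within 100000 bp after IL-4, and 1.5% at equal rank in control. The causes were not tested. JUNB values rest on 15 and 8 peaks and allow no firm statement. No paired analysis was possible because each group had 1 sample.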
